A study of Homo sapiens with 4 samples.

Results

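Kinesins are motor proteins that use ATP to move along microtubules or to take microtubule ends apart. The 42 genes described here are all gene symbols in the deposited tables that consist of KIF or KIFC, a number and at most 1 letter from A to C, out of 28307 symbols in all. From textbook knowledge they were divided into 11 kinesins of axonal transport, 14 mitotic kinesins, 7 kinesins of cilia and other nonmitotic roles, and 10 remaining kinesins. CENPE, a mitotic kinesin with a name of another form, is not among the 42 and is listed below with the spindle genes.

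RNA came from excitatory neurons made from the human induced pluripotent stem cell line i3N-WTC11, with a dCas9-KRAB repressor driven by a CAG promoter and knocked into an intron of CLYBL. All 4 libraries carry this repressor, and all neurons were transduced with lentivirus at 2 weeks, selected with puromycin and collected 7 days after the virus. In 2 libraries (CRISPRi) the virus carried guide RNAs to a MIR-family transposable element of chromosome 11, and in the other 2 (control) it was the vector without a guide. The libraries are bulk polyA RNA from 1 cell line, the labels call the replicates biologically independent, and 2 guides were used per element, without a statement of which guide a library received. KIF18A is the one kinesin gene of the 42 that RefSeq places on chromosome 11 (28020619 to 28108156).

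A neuron keeps its nucleus and most of its protein synthesis in the cell body, and kinesins of the KIF1, KIF3 and KIF5 groups carry vesicles, mitochondria and cytoskeletal parts outward along the axon. Dividing cells use another set of kinesins to build the spindle, align chromosomes and cleave the cell, and these genes are mostly transcribed in late cell cycle stages. Neurons have left the cell cycle, and RNA of the mitotic set is usually scarce in them.

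Library depth was uneven. Where 4 values follow each other, their order is CRISPRi replicate 1, CRISPRi replicate 2, control replicate 1 and control replicate 2. Total gene counts ran from 39325038 to 44839748 in the 3 deep libraries (both CRISPRi libraries and control replicate 2) and came to 944993 in control replicate 1. Levels are given in CPM, counts scaled to the total of each library. A single count is 1.06 CPM in control replicate 1, where 0 counts allow a level of up to 3.17 CPM (3 counts, a one-sided limit); the two-sided interval used for counts below reaches 3.90 CPM. The label of the cells was checked against markers. The 14 neuronal markers had counts in every library and summed to between 22522 and 23373 CPM in the deep libraries and to 19784 CPM in control replicate 1. Of 8 pluripotency markers, TDGF1, ZFP42 and L1TD1 were at 0 counts in every library and NANOG had 1 count in the 4 together. POU5F1 had 9, 12, 0 and 12 counts, and SOX2, which neural progenitors also express, had 74, 55, 4 and 63. LIN28A held most of the sum of this list, at 20.2, 19.7, 13.8 and 21.0 CPM.

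The first contrast is between the transport and the mitotic kinesins within each library. Transport kinesins held most of the kinesin counts, which also rise with transcript length. They held 90.9%, 91.0% and 90.7% of kinesin counts in CRISPRi replicates 1 and 2 and control replicate 2, and mitotic kinesins held 0.569%, 0.578% and 0.629%. In control replicate 1 the shares were 89.2% and 2.04%.

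Summed counts of the transport kinesins stood to those of the mitotic kinesins as 159.7 to 1 in CRISPRi replicate 1 (interval 153.5 to 166.3), 158 to 1 in CRISPRi replicate 2 (151 to 164), 144 to 1 in control replicate 2 (138 to 150.3) and 43.8 to 1 in control replicate 1 (37.6 to 51.3). These intervals are exact Poisson 95% limits on the mitotic sum and cover counting error only. Control replicate 1 lay far below the other 3 libraries, and control replicate 2 lay slightly below both CRISPRi libraries. Divided by transcript length, which makes genes comparable, the ratio was 55.6, 56.4, 17.1 and 51.0.

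On the log2 scale the ratio of summed counts was 7.31 ± 0.01 in CRISPRi and 6.31 ± 1.22 in controls (mean ± SD, n = 2 each). The difference of 1.00 is barely larger than the pooled SD within groups, 0.86, and the spread comes from the controls. No test was run, since 2 libraries a group allow a smallest exact two-sided permutation p of 1 in 3. Without control replicate 1 the difference was 0.14, and without control replicate 2 it was 1.86.

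**Figure D1:**
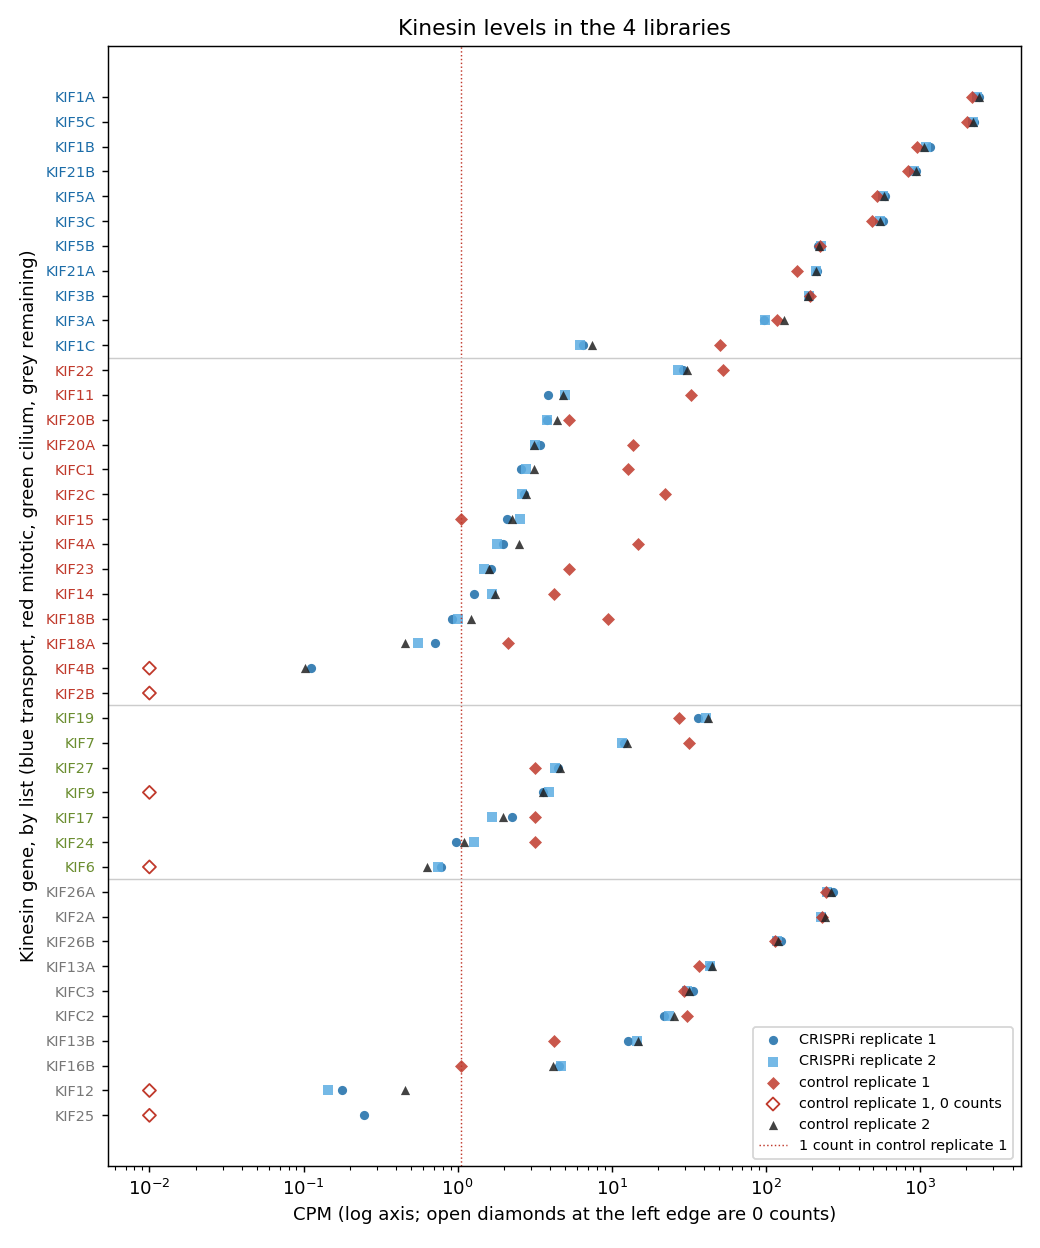
CPM (log axis) of each of the 42 kinesins in the 4 libraries, 1 point per library, sorted by list and by mean level in the deep libraries; open diamonds mark 0 counts in control replicate 1, and 0 counts in the deep libraries are not drawn. The points of the transport kinesins other than KIF1C nearly coincide, whereas for most mitotic kinesins the red diamond of control replicate 1 lies to the right of the other 3 points.

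Among the transport kinesins the plot of levels by library shows a narrow spread. KIF1A, the kinesin-3 motor that carries synaptic vesicle precursors (chromosome 2, 240713767 to 240821403), was at 2422, 2334, 2170.4 and 2407 CPM. KIF5C, a neuronal heavy chain of conventional kinesin (chromosome 2, 148875227 to 149026759), was at 2237, 2208, 2016 and 2203 CPM. Control replicate 1 was the lowest for both genes, and the other 3 libraries lay close together.

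Per kilobase of transcript KIF5C came first, with a mean over the deep libraries of 319.7 CPM per kb, followed by KIF1A at 266. Next came KIF3C, KIF1B, KIF5A and KIF21B, at 105, 104, 101 and 94.5 CPM per kb. These 4 neighbours differ by little, and their order by CPM alone is another one, since KIF1B and KIF21B have the longer transcripts. KIF5B, KIF21A, KIF3B and KIF3A followed at 37.8, 32.3, 31.0 and 17.2 CPM per kb. KIF1C was at 0.849 CPM per kb, within the range of the mitotic kinesins.

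The heavy chains of conventional kinesin, which bind mitochondria and vesicles through light chains and adaptors, kept nearly the same proportions in every library. Per length KIF5C gave 69.95%, 69.8%, 69.3% and 69.6% of their sum. KIF5A, the neuronal heavy chain mutated in a hereditary spastic paraplegia (chromosome 12, 57550044 to 57586633), was at 591, 579, 526 and 588 CPM. KIF5B, the heavy chain found in most cell types (chromosome 10, 32009015 to 32056425), was at 219, 227, 225 and 221 CPM and was the most even of the 3, with no library apart.

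KIF1B, a motor of mitochondria and synaptic vesicle precursors, was at 1156, 1089, 959 and 1071 CPM. KIF21B, a kinesin that also limits microtubule growth, was at 948, 914, 835 and 944 CPM, and its relative KIF21A at 216, 212, 159.8 and 212 CPM. For each of these 3 genes control replicate 1 was the lowest library.

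KIF1C, a broadly expressed kinesin-3 that carries dense core vesicles and integrins (chromosome 17, 4997950 to 5028401), broke this pattern. It was at 6.56, 6.18 and 7.43 CPM in CRISPRi replicates 1 and 2 and control replicate 2 (294, 257 and 292 counts) and at 50.8 CPM in control replicate 1 (48 counts). The counts in control replicate 1 were 7.56 times the 6.35 that its depth and the mean of the deep libraries predict, with an exact Poisson interval of 5.57 to 10.0 times. It was the lone member of the transport list whose interval lay above its prediction.

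The second contrast is between CRISPRi and control neurons. edgeR's quasi-likelihood test called no kinesin after Benjamini-Hochberg adjustment over all genes. Of the 42 kinesins 38 passed the filter on low counts, 0 were called higher (background 0% of 15708 tested genes) and 0 lower (background 0.0255%). At an unadjusted p under 0.05, KIF3A was the one kinesin, against 0.961% of all tested genes. DESeq2 called 0 of 41 kinesins, with 5 at an unadjusted p under 0.05, all lower in CRISPRi, against 1.1% of 20124 genes. Over all genes DESeq2 had 190 lower and 31 higher at that unadjusted p. With limma-voom 0 of 38 were called and 1 had such a p, against 1.73%.

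KIF3A is a motor subunit of kinesin-2, which pairs with KIF3B and the accessory protein KIFAP3 in axons and cilia; RefSeq places it on chromosome 5 (132688812 to 132737546). Its levels were 96.8, 98.5, 119 and 131 CPM. Both CRISPRi libraries lay below both controls without overlap, as they did in 16.5% of all tested genes. The means were 97.7 ± 1.17 and 125 ± 8.47 CPM (mean ± SD, n = 2 each), and the log2 fold change was -0.36 (95% confidence interval -0.56 to -0.16, edgeR unadjusted p = 0.00472, adjusted p = 1).

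The value of control replicate 1 rests on 112 counts, with an exact Poisson interval of 97.6 to 143 CPM that reaches down to the CRISPRi levels. Without control replicate 1 KIF3A was called by edgeR (log2 fold change -0.41, adjusted p = 0.0131), and it was the one of 39 tested kinesins called lower there, against control replicate 2 alone. In that fit 0.222% of 16232 genes were called lower and 0.437% higher. In the other settings run the adjusted p lay between 0.296 and 1, and the log2 fold change between -0.19, in libraries thinned to the depth of control replicate 1, and -0.40.

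None of the partners of KIF3A was lower in both CRISPRi libraries than in both controls. KIF3B was at 189.7, 191, 194 and 187 CPM, with overlapping groups and a log2 fold change of 0.02 (interval -0.15 to 0.20). KIF3C, which can take the place of KIF3B and is mostly neuronal, was at 579.6, 553, 486 and 551 CPM, with a log2 fold change of 0.14 (interval -0.10 to 0.38). KIFAP3 was at 188, 181, 151 and 169.8 CPM, with a log2 fold change of 0.19 (interval -0.02 to 0.41). Per length KIF3A made up 9.89%, 10.35%, 13.3% and 13.4% of the KIF3 sum. The difference between KIF3A and its partners was not tested.

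**Figure D2:**
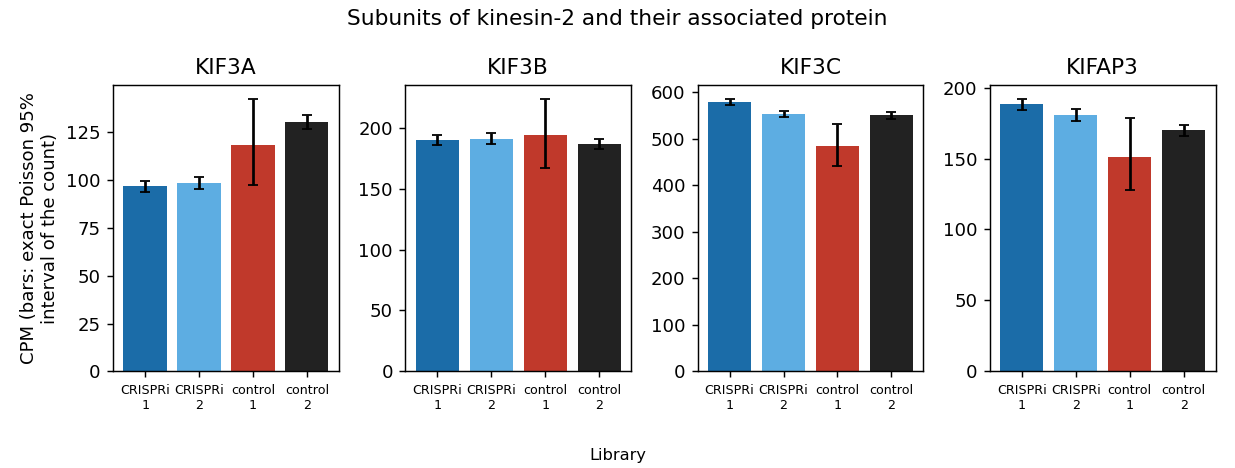
CPM of the kinesin-2 subunits KIF3A, KIF3B and KIF3C and of KIFAP3 in each library (bars from 0, whiskers exact Poisson 95% intervals of the count). The KIF3A bars stand at 96.8, 98.5, 119 and 131 CPM from left to right, while the libraries of the other 3 genes do not separate in that direction.

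For the other transport kinesins the fold changes were small except at KIF1C. Of 11 tested members 9 had a positive and 2 a negative log2 fold change, with a median of 0.08 beside 0.01 over all tested genes. KIF21A had 0.17 (interval -0.17 to 0.51), KIF1B 0.16 (-0.08 to 0.39), KIF5C 0.09 (-0.12 to 0.30), KIF5A 0.08 (-0.15 to 0.31), KIF21B 0.08 (-0.16 to 0.31), KIF1A 0.07 (-0.15 to 0.30) and KIF5B 0.01 (-0.17 to 0.20). These intervals all hold 0 and reach at most 0.51. The median of the list, 0.08, moved to 0.0143 when control replicate 1 was left out and to 0.17 when control replicate 2 was. KIF1C, at -1.57 with an interval of -4.22 to 1.08, was far less certain. Without control replicate 1 KIF1C was at -0.21, and without control replicate 2 at -2.96 and called. In the latter fit 4.97% of 16064 genes were called lower and 3.61% higher, beside 9 and 5 of 38 kinesins.

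Mitotic kinesins were mostly lower in CRISPRi than in the mean of the controls, and none passed the test. Of the 14 members 12 were tested, of which 10 had a negative log2 fold change. The median was -0.65, beside 0.01 over all tested genes, moving to -0.13 when control replicate 1 was left out and to -1.87 when control replicate 2 was. KIF2C (-1.64), KIF18B (-1.62), KIF4A (-1.58), KIF11 (-1.49) and KIFC1 (-0.997) had the most negative values. They were followed by KIF20A (-0.73), KIF14 (-0.56), KIF23 (-0.50), KIF22 (-0.35) and KIF20B (-0.27), and KIF18A (0.11) and KIF15 (0.17) were positive. For KIF18A the sign of the fitted value runs against the group means, which were 0.634 CPM in CRISPRi and 1.29 CPM in control. The interval of each holds 0, from -4.21 to 0.94 for KIF2C and from -0.90 to 0.19 for KIF22. In bulk RNA, fewer cells of a type and less RNA per cell cannot be told apart.

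Both CRISPRi libraries lay below both controls in 12 of the 38 tested kinesins, against 16.5% of all tested genes, and above both in 5, against 17.8%. The 12 included 7 mitotic kinesins (KIF2C, KIF4A, KIF14, KIF18B, KIF20B, KIF22 and KIFC1). For each of these 7, control replicate 1 was the highest library. Control replicate 2 lay nearer to both CRISPRi libraries than to control replicate 1. The 5 were KIF1B, KIF3C, KIF5C, KIF6 and KIF16B.

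**Figure D3:**
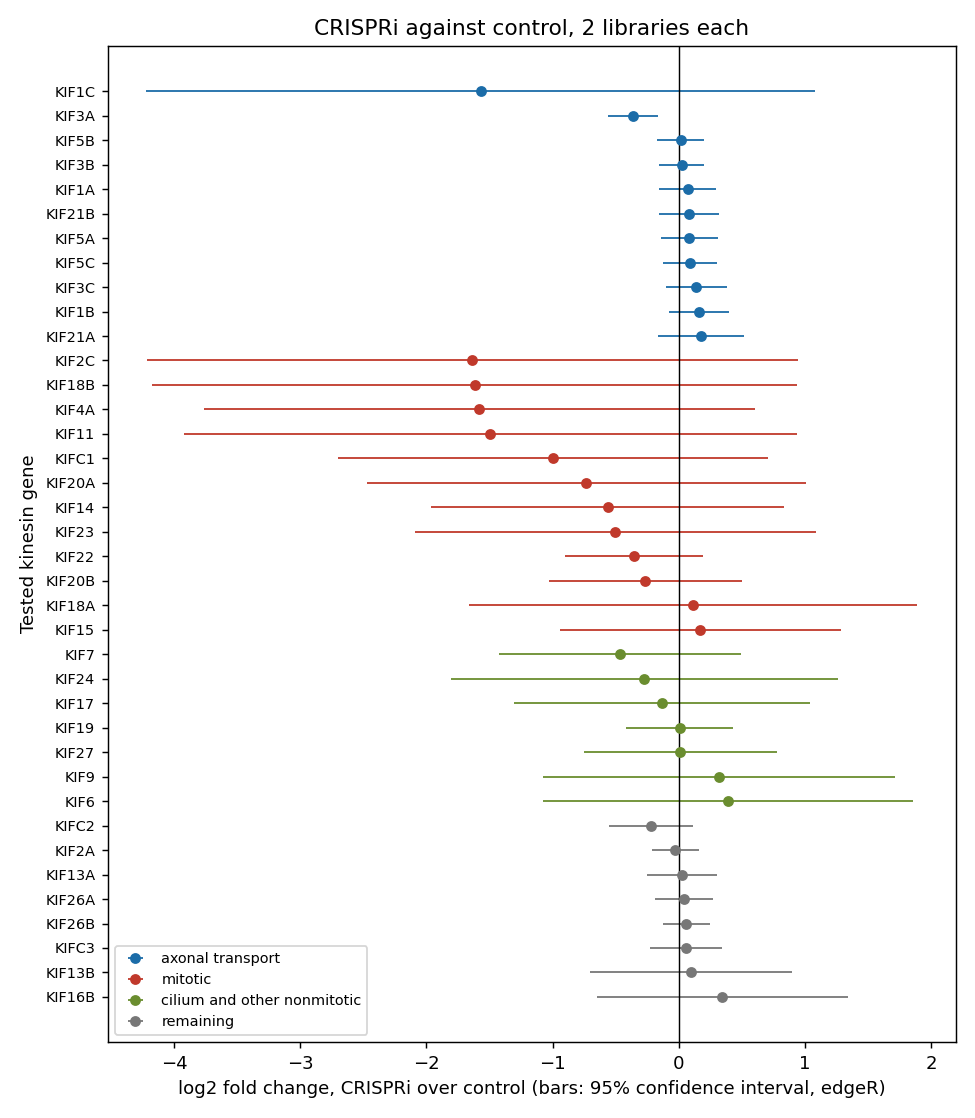
Log2 fold change of CRISPRi over control for the 38 tested kinesins, with the 95% confidence interval from edgeR, sorted by list and value. KIF3A at -0.36 is the member whose interval leaves out 0, and the intervals of the mitotic kinesins and KIF1C are wide.

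The third contrast sets control replicate 1 beside the deep libraries. It is 1 library, so there is no replicate check and no test. Mitotic kinesins summed to 54.2, 53.4 and 59.1 CPM in CRISPRi replicates 1 and 2 and control replicate 2, and to 177 CPM in control replicate 1. That library held 167 mitotic kinesin counts where the deep libraries predict 52.5, a ratio of 3.18 (exact Poisson interval 2.72 to 3.70). For transport kinesins it held 7314 counts where 8062 are predicted, a ratio of 0.907 (0.887 to 0.928). Without KIF22, which gave 50.4% to 53.7% of mitotic counts in the deep libraries, the mitotic ratio was 4.65 (3.85 to 5.58).

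**Figure D4:**
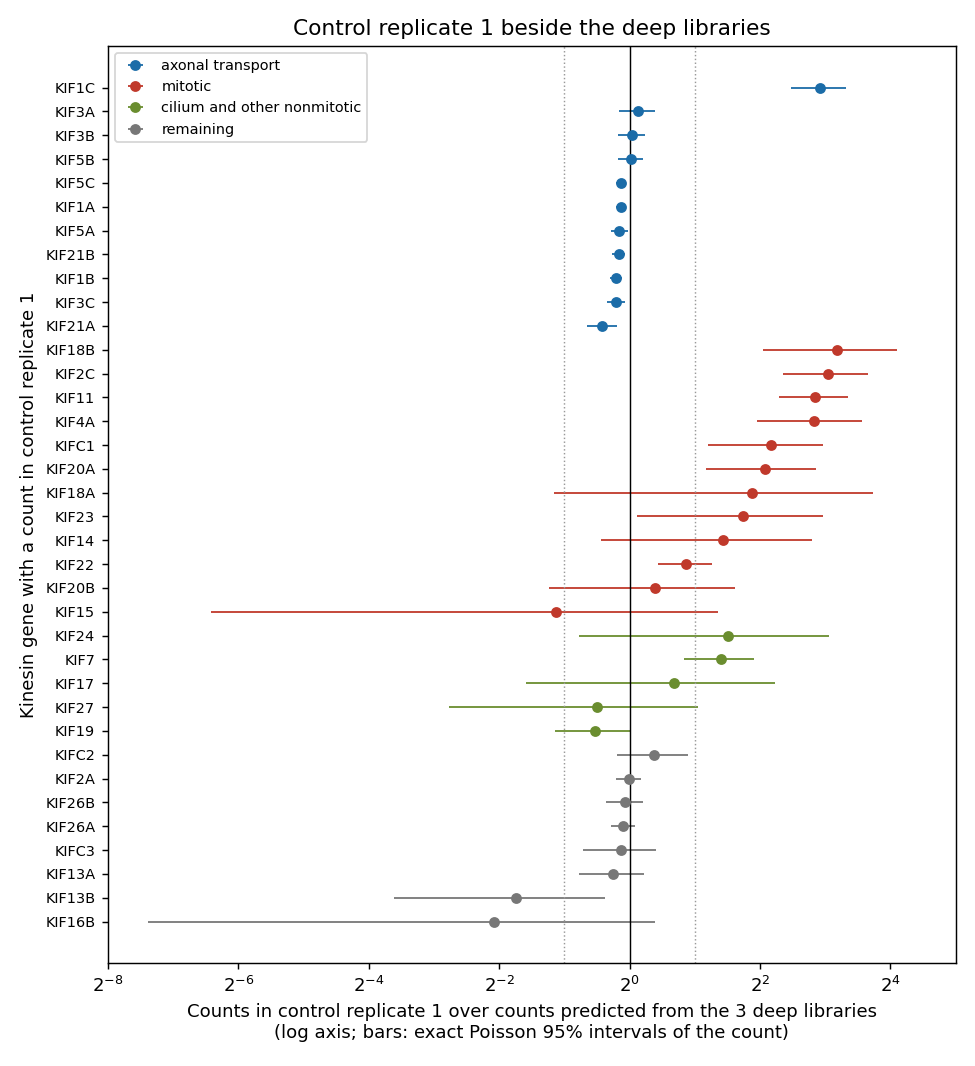
Counts of each kinesin in control replicate 1 divided by the counts predicted from its depth and the mean CPM of the 3 deep libraries (log axis), with exact Poisson 95% intervals; genes with 0 counts in that library are left out. Most mitotic kinesins and KIF1C and KIF7 lie to the right of 1, and the abundant transport kinesins lie at or slightly left of 1.

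Before the single mitotic genes, promoter sequences of some of them are shown. Late cell cycle genes are known for promoters with CCAAT boxes, bound by NF-Y, and a cell cycle homology region (CHR), bound by the DREAM complex and B-MYB. The stretches below are the 120 bases before the RefSeq gene start in build GRCh38.p14, 5′ to 3′ on the gene's strand, for the 4 mitotic kinesins with the highest ratios in control replicate 1 and for KIF1A and KIF3A. Capitals mark the letters CCAAT or TTTGAA, on either strand (ATTGG and TTCAAA on the other).
KIF18B (chr17:44947774-44947893, minus strand): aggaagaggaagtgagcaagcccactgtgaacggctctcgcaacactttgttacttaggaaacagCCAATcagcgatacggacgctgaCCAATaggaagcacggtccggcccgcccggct
KIF2C (chr1:44739717-44739836, plus strand): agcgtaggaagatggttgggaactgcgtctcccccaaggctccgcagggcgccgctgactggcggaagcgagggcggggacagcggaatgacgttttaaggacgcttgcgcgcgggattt
KIF11 (chr10:92593010-92593129, plus strand): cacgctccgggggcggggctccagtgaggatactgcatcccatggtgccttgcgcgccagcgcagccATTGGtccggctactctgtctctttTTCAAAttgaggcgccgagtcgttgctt
KIF4A (chrX:70289984-70290103, plus strand): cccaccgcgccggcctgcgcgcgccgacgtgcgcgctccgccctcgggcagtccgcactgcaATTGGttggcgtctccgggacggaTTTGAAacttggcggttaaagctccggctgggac
KIF1A (chr2:240821404-240821523, minus strand): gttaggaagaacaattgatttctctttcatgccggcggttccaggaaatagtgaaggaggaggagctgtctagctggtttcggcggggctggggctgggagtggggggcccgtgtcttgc
KIF3A (chr5:132737547-132737666, minus strand): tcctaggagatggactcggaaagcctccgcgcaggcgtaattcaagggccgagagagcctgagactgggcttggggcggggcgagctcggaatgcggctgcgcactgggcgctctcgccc

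In the 250 bases before the start, CCAAT stood on either strand in 11 of 14 mitotic kinesin promoters and in 3 of the 9 transport kinesin promoters that the table holds, beside 33.0% of 27305 promoters. TTTGAA stood in 5 of 14 (KIF4A, KIF11, KIF15, KIF18A and KIF23) and in 1 of 9 (KIF5B), beside 13.6% of all promoters. Both motifs stood in 4 of 14 and 1 of 9, beside 4.85%. KIF2C held neither motif in this window. The relation between these motifs and the levels in control replicate 1 was not tested. A match of letters is a description and not a binding site.

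Of the mitotic kinesins, KIF18B, a plus-end depolymerase of astral microtubules, was at 0.914, 1.01 and 1.22 CPM in CRISPRi replicates 1 and 2 and control replicate 2 and at 9.52 CPM in control replicate 1 (9 counts). KIF2C, the depolymerase MCAK that corrects wrong attachments at centromeres, was at 2.70, 2.62, 22.2 and 2.77 CPM. The counts in control replicate 1 were 9.08 and 8.24 times their predictions for these genes, with intervals of 4.15 to 17.2 and 5.10 to 12.6. Both stood clear of the 3 deep libraries.

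KIF11, the kinesin-5 that pushes spindle poles apart (chromosome 10, 92593130 to 92655395), was at 3.88, 4.96, 32.8 and 4.86 CPM, from 174, 206, 31 and 191 counts. KIF4A, a chromokinesin that also sets the length of the central spindle (chromosome X, 70290104 to 70420886), was at 1.98, 1.80, 14.8 and 2.49 CPM. Their ratios in control replicate 1 were 7.19 (interval 4.88 to 10.2) and 7.08 (3.87 to 11.9). KIF4B, a near-identical retrogene copy of KIF4A, had 5, 0, 0 and 4 counts, and reads of the copies may have been exchanged in the counting.

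KIFC1, a minus-end motor that focuses spindle poles, was at 2.59, 2.79, 12.7 and 3.13 CPM, a ratio of 4.48 in control replicate 1 (interval 2.31 to 7.82). KIF20A, needed for cytokinesis, was at 3.41, 3.20, 13.8 and 3.13 CPM, a ratio of 4.24 (2.26 to 7.25). KIF23, the motor of centralspindlin, was at 1.65, 1.49, 5.29 and 1.60 CPM, from 5 counts in control replicate 1, a ratio of 3.35 (1.09 to 7.81). In each of these 3 genes control replicate 1 was the highest library and the deep libraries lay within a narrow range.

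KIF22, a chromokinesin (chromosome 16, 29790751 to 29805385), was the most abundant of the list in the deep libraries, at 29.1, 26.9 and 30.9 CPM, or 13.7 CPM per kb. It was at 52.9 CPM in control replicate 1, a ratio of 1.83 (interval 1.36 to 2.41), the smallest among the 8 mitotic kinesins whose interval lay above the prediction. The deposited rows of several duplicated genes on chromosome 16, such as SLX1A and BOLA2B, span that of KIF22, and the sources used here do not say how reads were divided among them.

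For 4 mitotic kinesins with a count in control replicate 1, the interval did not set that library apart. KIF14 was at 1.27, 1.66, 4.23 and 1.75 CPM (4 counts in control replicate 1), KIF18A at 0.714, 0.553, 2.12 and 0.458 CPM (2 counts) and KIF20B at 3.79, 3.83, 5.29 and 4.45 CPM (5 counts). KIF15, which backs up KIF11 in the spindle, was at 2.10, 2.55, 1.06 and 2.26 CPM, 1 count where 2.18 are predicted. Their intervals hold the prediction. That of KIF20B runs from 0.427 to 3.07 around a ratio of 1.32 and rests on as many counts as that of KIF23. KIF15 was the one mitotic kinesin with a count in control replicate 1 that lay lower than in every deep library. KIF2B had 0 counts in every library, which allows up to 0.0669 CPM in the deepest.

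Of the 38 tested kinesins, 17 were higher in control replicate 1 than in every deep library, against 39.5% of all tested genes, and 18 were lower, against 50.2%. The 17 included 11 of the 12 tested mitotic kinesins. Among the 11 are KIF14, KIF18A and KIF20B, whose count intervals hold the prediction. For KIF18A, at most 0.714 CPM in the deep libraries, a single count (1.06 CPM) puts control replicate 1 highest. The share of 39.5% is over tested genes of all levels. With at least 5 predicted counts, 21 kinesins qualified, and KIF1C and KIF7 were past 2-fold higher, against 2.49% of 11180 genes. KIF13B was past 2-fold lower, against 4.52%. By the count interval, 3 of the 21 lay above their prediction, against 12.6%, and 8 below, against 9.9%. KIF22 was the one mitotic kinesin at that depth and was not past 2-fold. With at least 2 predicted counts, 4 of 7 mitotic kinesins were past 2-fold higher (KIF2C, KIF11, KIF20A and KIFC1), against 4.1% of 12699 genes, and KIF15 was past 2-fold lower, against 8.23%. By the count interval, 5 of 7 mitotic kinesins lay above, against 12.5%, and 1 of 11 transport kinesins. The interval lay below the prediction in 7 of 11 transport kinesins, against 9.27%. Such intervals narrow as counts rise, and the 7 had from 151 (KIF21A) to 2051 (KIF1A) counts in control replicate 1. The background shares cover genes of all levels above the stated minimum and are not matched for counts. The 7 of 11 and the 8 of 21 are therefore not a trait shown for these genes.

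KIF3A, KIF3B, KIF5B and KIF1C were the transport kinesins whose interval did not lie below the prediction. The ratios of the 7 others ran from 0.750 for KIF21A to 0.910 for KIF5C.

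Other markers moved with the mitotic kinesins in control replicate 1. Of 10 proliferation markers 10 were higher there than in every deep library, against 39.5% of all tested genes. Their sum was 606 CPM against 140.5 to 152 CPM. Of 26 spindle partners 25 were higher, with a sum of 629.6 CPM against 158 to 163 CPM. AURKB, the kinase of the chromosomal passenger complex that acts with KIF20A, KIF23 and KIF2C, was at 1.41, 1.66, 25.4 and 1.35 CPM. CENPE was at 3.01, 3.39, 5.29 and 2.82 CPM, from 5 counts in control replicate 1.

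Markers of other cell types differed from list to list. Of all tested genes, 39.5% were above every deep library in control replicate 1 and 50.2% below, the shares to set beside the counts here. Summed pluripotency markers were at 18.0 CPM in control replicate 1 and 21.4 to 22.9 CPM in the deep libraries, with POU5F1 and NANOG at 0 counts in control replicate 1. Neural progenitor markers summed to 1075 CPM against 1063 to 1106 CPM, with 5 of 8 above every deep library and 2 at 0 counts. NES held most of this sum, at 864, 856, 731 and 828 CPM, and was lowest in control replicate 1. VIM, one of the 5, was at 133, 141, 217 and 119 CPM. Glial markers summed to 32.8 CPM against 28.4 to 32.7 CPM, with 5 of 10 above and 4 at 0 counts. Fibroblast and mesenchymal markers summed to 248 CPM against 165 to 287 CPM, with 1 of 10 (TAGLN) above every deep library, 8 below and 3 at 0 counts. Most of that sum was THY1, also expressed by neurons, at 185, 183, 168 and 66.5 CPM. Neuronal markers were lower in control replicate 1 than in every deep library for 13 of 14. The part of any of these in the kinesin values was not tested.

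By edgeR, 0 of 26 tested spindle partners were called between CRISPRi and control neurons, and 25 had a negative log2 fold change, with a median of -0.71. The 3 with the smallest p were ASPM (-1.79), CDC20 (-2.52) and UBE2C (-1.54). Their counts were high in control replicate 1 as well, and CDC20, which activates the anaphase-promoting complex, was at 2.34, 3.06, 40.2 and 3.10 CPM.

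No light chain or adaptor of kinesin was called. Of 25 listed symbols 22 are in the tables and 21 were tested, 0 were called, 14 had a positive and 7 a negative log2 fold change, and the median was 0.04. The 3 with the smallest p were KIFAP3 (0.19), the mitochondrial adaptor TRAK2 (0.24) and the scaffold MAPK8IP1 (0.10). The light chain KLC1 was at 846, 849, 776 and 848 CPM. KLC4 was at 37.9, 38.2, 41.3 and 39.3 CPM, and KLC3 had at most 2 counts in any library.

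The motor that carries cargo the opposite way, dynein with its activator dynactin, also had no call. All 23 listed genes were tested, 0 were called, and the median log2 fold change was 0.08. DYNC1H1, the dynein heavy chain, was at 2371, 2308, 1946 and 2295 CPM, with a log2 fold change of 0.16. BICD1, a cargo adaptor, had 0.13 and the light intermediate chain DYNC1LI2 -0.11. Summed over the list, control replicate 1 was at 6823 CPM and the deep libraries at 7640 to 7731 CPM.

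Kinesins of cilia and other nonmitotic roles were low, and none was called. KIF19, a depolymerase that limits the length of motile cilia, was the highest at 36.5, 40.8, 27.5 and 42.1 CPM. KIF7, the Hedgehog regulator at the tip of the primary cilium, was at 12.1, 11.6 and 12.5 CPM in the deep libraries and 31.7 CPM in control replicate 1 (30 counts), a ratio of 2.63 (interval 1.78 to 3.76). Its log2 fold change was -0.46 (interval -1.42 to 0.50). Apart from KIF7, no member of this list had a count in control replicate 1 whose interval left out the prediction.

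KIF27 was at 4.48, 4.31, 3.17 and 4.65 CPM, and KIF17, a dendritic and ciliary motor, at 2.25, 1.68, 3.17 and 1.98 CPM. KIF24, which acts at centrioles, was at 0.981, 1.28, 3.17 and 1.09 CPM. KIF9 (3.57, 3.92 and 3.59 CPM in the deep libraries) and KIF6 (0.781, 0.746 and 0.636 CPM) had 0 counts in control replicate 1. The two-sided intervals hold both predictions, that of KIF9 narrowly. In the deposited FPKM, a level scaled to transcript length and depth, KIF9 was at 4.11, 4.43, 0.0723 and 4.45. That level is above 0 in control replicate 1, where the count is 0, and the difference was not examined. KIF9 overlaps the antisense gene KIF9-AS1 by 16119 bases in the deposited table. Shorter antisense overlaps are KIF2A with DIMT1 (3772 bases), KIF1C with KIF1C-AS1 (879), KIFC2 with FOXH1 (791), KIF23 with LOC145694 (681), KIF24 with UBAP1 (144), KIF20A with CDC23 (71) and KIF7 with TICRR (46). Whether counting used the strand is not stated, so reads in these stretches cannot be assigned with certainty.

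The remaining kinesins held the highest levels outside the transport list. KIF26A and KIF26B, which lack ATPase activity, were at 275, 248, 246 and 265 CPM and at 125, 118, 115 and 119.5 CPM. KIF2A, a depolymerase that prunes axon branches and also acts at spindle poles, was at 233, 228, 233 and 241 CPM, with a ratio of 0.994 in control replicate 1 (interval 0.867 to 1.13). None of these 3 followed the mitotic kinesins.

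KIF13A, an endosome motor, was at 43.4, 43.7, 37.0 and 45.0 CPM. KIFC3 was at 34.0, 30.9, 29.6 and 31.9 CPM and KIFC2, a neuronal minus-end kinesin, at 21.8, 23.5, 30.7 and 25.4 CPM. The interval of each fold change holds 0, and KIFC2 had a log2 fold change of -0.22 (interval -0.55 to 0.11).

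KIF13B, which carries membrane receptors, was at 12.8, 14.7 and 14.9 CPM in the deep libraries and at 4.23 CPM in control replicate 1, 4 counts where 13.3 are predicted. KIF16B, an early endosome motor, was at 4.55, 4.72, 1.06 and 4.17 CPM, from 1 count in control replicate 1, with an interval that holds the prediction. KIF12 had 8, 6, 0 and 18 counts. KIF25 had 11 counts in CRISPRi replicate 1 and 0 in the other 3 libraries. KIF12 and KIF25 were not tested, nor were KIF2B and KIF4B.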

How the data were processed

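The deposited files, 1 per library, hold the authors' whole-number read counts per gene and their FPKM, a level scaled to transcript length and depth. The submitters' processing notes name hg38, edgeR and limma; aligner, counting tool and strandedness are not given in the sources used here. Rows were summed per symbol over all contigs. KIF5C, KIF15, KIF26B and KIFC1 have rows on alternate or fix contigs alone, where the deposited FPKM is 0. Levels per kb use the GENCODE release 29 transcript with the best APPRIS principal tag. For 15 transport and mitotic kinesins with at least 100 counts, the deposited FPKM was 0.945 to 1.02 times that level. KIF5C, first per kb, has an FPKM of 0 and could not be checked so. Outside these 2 lists the factor ranged more widely, for example 0.319 for KIF2A, 0.64 for KIF27 and 3.86 for KIF9. Gene positions and promoters are from RefSeq (GRCh38.p14); 34 of 42 promoters were found.

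The 2 CRISPRi and 2 control libraries entered a quasi-likelihood fit with group as the only term (edgeR 4.0.16, R 4.3.3; genes kept by filterByExpr, TMM scaling, robust dispersion, adjusted p under 0.05); intervals of fold changes derive from F, and edgeR raises some p to a Poisson bound. DESeq2 1.42.0 and limma-voom (limma 3.58.1) were alternatives, with other scalings, filters, a replicate block, thinning, primary chromosomes only and each library left out. The members, lists and tests were chosen with earlier results of these data known. Every kinesin is given with its levels; fold changes are given for tested transport and mitotic members, for KIF7 and KIFC2, chosen after their values were seen, and for 3 genes, by smallest p, of the adaptor, dynein and spindle lists; marker lists are given as sums and counts, which departs from the rule set for naming genes. P-values set the difference between groups against the spread between these libraries, estimated with information shared over genes. Count intervals cover counting error only.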

Additional observations from a re-analysis of the deposited data

How the results depend on the processing

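No kinesin was called under other scalings, other filters, DESeq2, limma-voom, the replicate block (0 higher and 0 lower, smallest adjusted p = 0.0601 for KIF1C, by edgeR), thinning (19 kinesins tested) or primary chromosomes only (34 tested, without KIF5C, KIF15, KIF26B and KIFC1). With a library left out, 0 to 5 kinesins were called higher and 0 to 9 lower, the most without control replicate 2 (3.61% and 4.97% of all genes), where control replicate 1 stands alone for its group and is assumed to vary like the other. The median of the transport kinesins then ran from 0.0143 to 0.17, that of the mitotic kinesins from -1.87 to -0.13, and the log2 ratio difference from 0.14 to 1.86. Of 283 values of 23 single genes under alternatives, 257 had the sign and call of the reported value, 13 gained a call and 13 turned sign. KIF18A turned with DESeq2 (-0.62), limma-voom (-0.51) and the replicate block (-0.35) and, in leave-one-out fits, lay between -1.70 and 0.47. KIF5B turned with total count scaling (-0.00257) and thinning (-0.15) and lay between -0.0167 and 0.0430 in leave-one-out fits. There KIF1A lay between -0.0118 and 0.16, KIF20A between -2.03 and 0.0861, KIF21B between -0.0151 and 0.19 and KIF5A between -0.000800 and 0.18. The cause was not tested. Kinesins past 2-fold higher in control replicate 1 numbered 2 and became 6 with at least 2 predicted counts; the mitotic ratio of 3.18 became 4.65 without KIF22, chosen after the values were seen. The labels give no pairing by replicate number, and same-numbered libraries had a correlation of deviations of -0.03 over genes.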
